A study of Mus musculus with 12 samples.

Results

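The 4 metallothionein genes of the mouse, Mt1, Mt2, Mt3 and Mt4, were taken by name from the 54838 genes counted in the ileum. Each had 1 row in the count table, and 3 of the 4 had enough reads to be tested beside the other genes of the set of 15938. Mt3 was left out of that set by the filter on low counts, and Mt4 passed the filter only through the mice that drank zinc.

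Metallothioneins are small cysteine-rich proteins that bind zinc and copper and buffer the free metal in a cell. Their best known regulator is MTF1, a transcription factor that senses zinc and binds short metal response elements (MREs) near its target genes, and glucocorticoids are also known to raise Mt1 and Mt2 in several tissues. Mt1 and Mt2 are widely expressed, Mt3 is best known from the brain and Mt4 from stratified squamous epithelia such as skin and tongue.

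C57BL/6J mice of 8 to 14 weeks drank either normal water or water with 25 mM ZnSO4 for 7 days. They were then injected with PBS or with 200 µg dexamethasone (Dex), a synthetic glucocorticoid, and whole ileum was taken 2 h later. The 4 groups (water + PBS, water + Dex, ZnSO4 + PBS and ZnSO4 + Dex) held 3 mice each. The study's methods give the mice as female. All mice were injected, so an uninjected group is not among those analysed. Between 10760132 and 11827487 reads per library were counted on genes. Fkbp5 and Tsc22d3, known targets of the glucocorticoid receptor, served as a check of the injection: the highest normalised count among the 6 PBS mice was 1222 for Fkbp5 and 903.0 for Tsc22d3, and the lowest among the 6 Dex mice was 10260 for Fkbp5 and 5274 for Tsc22d3. All 7 markers of ileal enterocytes, such as Fabp6 and Slc10a2, were tested, and their summed normalised count lay between 101000 and 210000 in all libraries. The second ZnSO4 + Dex mouse stood apart: it had the lowest sum and was the lowest of its group for each of the 7 (Vil1 at 15550, against 24450 and 25210 in the other mice), and it also had the highest Mt1, Mt2 and Mt4 of all 12. It and the third water + Dex mouse held the most albumin (Alb, a hepatocyte marker), at 2201 and 3855 normalised counts, against at most 554.7 in any other mouse. Summed B cell markers ranged from 114 to 5280 between libraries, with the groups overlapping.

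All 4 members lie on the plus strand of chromosome 8, in the order Mt4, Mt3, Mt2, Mt1, within 43131 bases (GRCm38, chr8:94137197-94180327). The gaps between neighbouring members are 13.6 kb from Mt4 to Mt3, 18.5 kb from Mt3 to Mt2 and 5.51 kb from Mt2 to Mt1. Mt4 (ENSMUSG00000031757) spans chr8:94137197-94139031, Mt3 (ENSMUSG00000031760) chr8:94152607-94154146, Mt2 (ENSMUSG00000031762) chr8:94172664-94173568 and Mt1 (ENSMUSG00000031765) chr8:94179082-94180327. The exons of Mt1, Mt3 and Mt4 overlap no other gene. Those of Mt2 overlap Gm45774, an antisense transcript of 1 exon on the minus strand (chr8:94170748-94173412), over 432 of their 588 bases, or 73.5%.

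The stretches just before the annotated starts are shown because they differ between the members in their MREs. Each window holds the 240 bases from 250 to 11 bases before the RefSeq start (GRCm38.p6, plus strand, 5′ to 3′), and capitals mark MREs, searched as TGCACNC and TGCGCNC on both strands.
Mt4, chr8:94136954-94137193: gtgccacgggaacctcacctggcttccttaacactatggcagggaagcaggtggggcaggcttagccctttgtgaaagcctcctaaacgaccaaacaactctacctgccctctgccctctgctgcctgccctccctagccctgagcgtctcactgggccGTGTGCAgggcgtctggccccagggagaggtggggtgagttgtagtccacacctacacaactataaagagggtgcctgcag
Mt3, chr8:94152357-94152596: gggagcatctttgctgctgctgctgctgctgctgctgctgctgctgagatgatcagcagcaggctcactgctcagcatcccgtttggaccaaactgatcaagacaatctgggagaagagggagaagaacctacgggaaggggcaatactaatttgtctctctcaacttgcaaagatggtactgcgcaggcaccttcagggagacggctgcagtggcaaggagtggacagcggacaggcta
Mt2, chr8:94172368-94172607: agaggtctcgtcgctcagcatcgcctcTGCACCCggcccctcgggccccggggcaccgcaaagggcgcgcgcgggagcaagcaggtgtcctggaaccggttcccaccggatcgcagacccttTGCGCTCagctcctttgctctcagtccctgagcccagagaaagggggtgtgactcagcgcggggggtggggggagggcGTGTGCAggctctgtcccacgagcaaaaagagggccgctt
Mt1, chr8:94178839-94179078: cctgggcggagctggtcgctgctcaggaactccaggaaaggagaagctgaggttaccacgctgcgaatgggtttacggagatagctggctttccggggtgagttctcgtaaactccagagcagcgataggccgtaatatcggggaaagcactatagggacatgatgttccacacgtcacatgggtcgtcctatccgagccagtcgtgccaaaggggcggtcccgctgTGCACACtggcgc

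The window of Mt2 held 3 MREs, those of Mt1 and Mt4 held 1 each, and that of Mt3 held 0. Of 32851 RefSeq windows of the same length, 20.4% held at least 1 MRE and 1.18% at least 3. The annotated starts are not settled: the GENCODE transcripts of Mt1 begin 7 bases before and 122 and 152 bases after the RefSeq start, and those of Mt2 begin 46 and 242 bases after it. The first 150 bases of the Mt1-201 transcript held 4 further MREs, of which 3 are on the plus strand (TGCACTC from base 10, TGCGCTC from base 28 and TGCGCCC from base 106) and the other is on the minus strand (read on the plus strand as GGGTGCA, from base 92), against 0.0518% of 21227 transcripts with at least 4. Those of Mt2-201 and Mt3-201 held 3 each and those of Mt4-201 held 0, against 0.471% of transcripts with at least 3. AGAACA, an arm of the glucocorticoid response element, was found in none of the 4 windows and in none of the 4 transcript starts, and 15.5% of all windows and 8.85% of all transcript starts held it. A match of letters is not a bound site, and the lack of a match says only that these letters are not in this stretch.

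Zinc raised Mt1 and Mt2 in mice injected with PBS, and Mt4, nearly absent without zinc, had by far the largest ratio of group sums. Counts were normalised to a library size of 11377723 reads. Mt1 was at normalised counts of 850.2, 700.3 and 490.3 in the 3 water + PBS mice and at 21990, 11970 and 22540 in the 3 ZnSO4 + PBS mice. Mt2 was at 159.5, 97.33 and 55.11 in water + PBS mice and at 4941, 2670 and 5357 in ZnSO4 + PBS mice. For both genes every ZnSO4 mouse was far above every water mouse, and the second ZnSO4 + PBS mouse was the lowest of its group.

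Mt4 was nearly absent from the ileum of water + PBS mice, with 1, 0 and 0 reads, and was counted 322, 85 and 515 times in ZnSO4 + PBS mice. The same second mouse was again the lowest. Over the group sums, 922 reads against 1, Mt4 was 878-fold higher per normalised read (exact 95% interval 157 to 34700, which covers counting error only). A count of 0 in a library still allows 3 reads, or up to 3.01 normalised counts in the water + PBS mouse concerned with the smaller library.

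**Figure D1:**
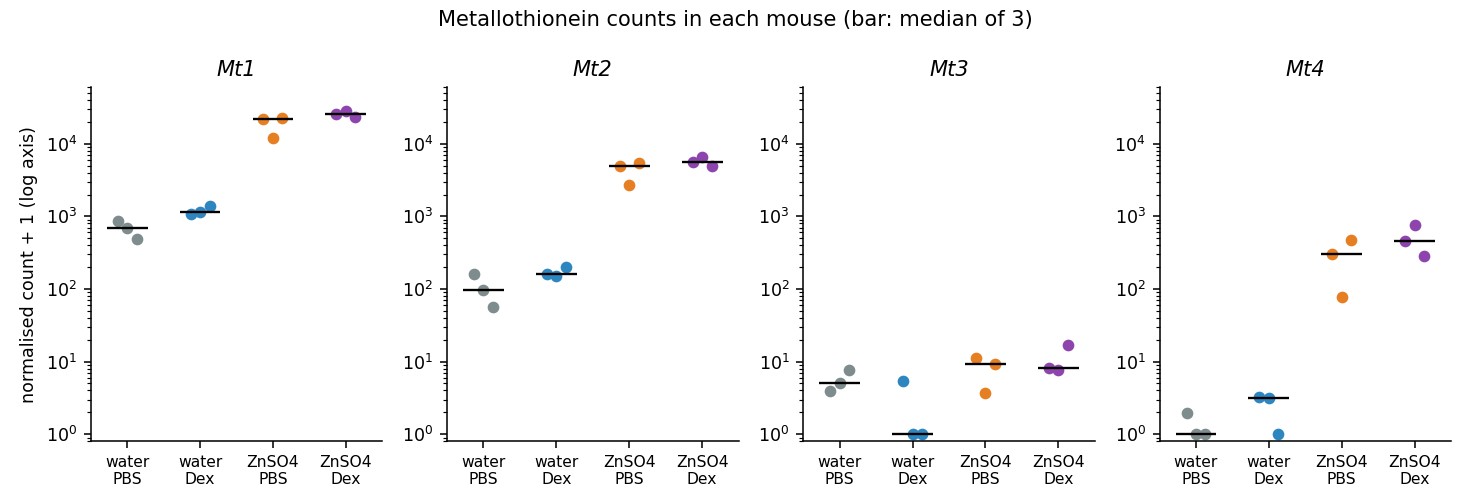
Normalised counts plus 1 of the 4 metallothionein genes (log axis) in each of the 12 mice, by group; each point is a mouse and each bar the median of 3. Mt1, Mt2 and Mt4 lie higher in all ZnSO4 mice than in all water mice, and Mt3 stays at or below 16.02 normalised counts in every mouse.

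The fitted log2 fold change (LFC) of ZnSO4 against water in PBS mice was 4.79 for Mt1 (SE 0.282, adjusted p = 9.1e-06, edgeR's quasi-likelihood test with Benjamini-Hochberg adjustment), a 27.7-fold rise. For Mt2 it was 5.38 (SE 0.372, adjusted p = 4e-05 in the same edgeR fit), a 41.6-fold rise. Mt4 was in this fit only because it was high with zinc, so its call there carries no weight. In an edgeR fit of all 30321 genes with at least 1 read in any library, where low genes were kept too, the adjusted p of Mt4 was 2.2e-06. Its fitted LFC depends on the count added to the reads of the water mice and is not a bound. A call needed both an adjusted p below 0.05 and an absolute LFC over 0.8. Of all genes tested, 0.747% were called higher and 0.954% lower in this comparison, Mt1 and Mt2 among the higher. The tests measure the spread between mice, and in whole tissue a change in the number of cells that express a gene and a change in RNA per cell cannot be told apart.

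**Figure D2:**
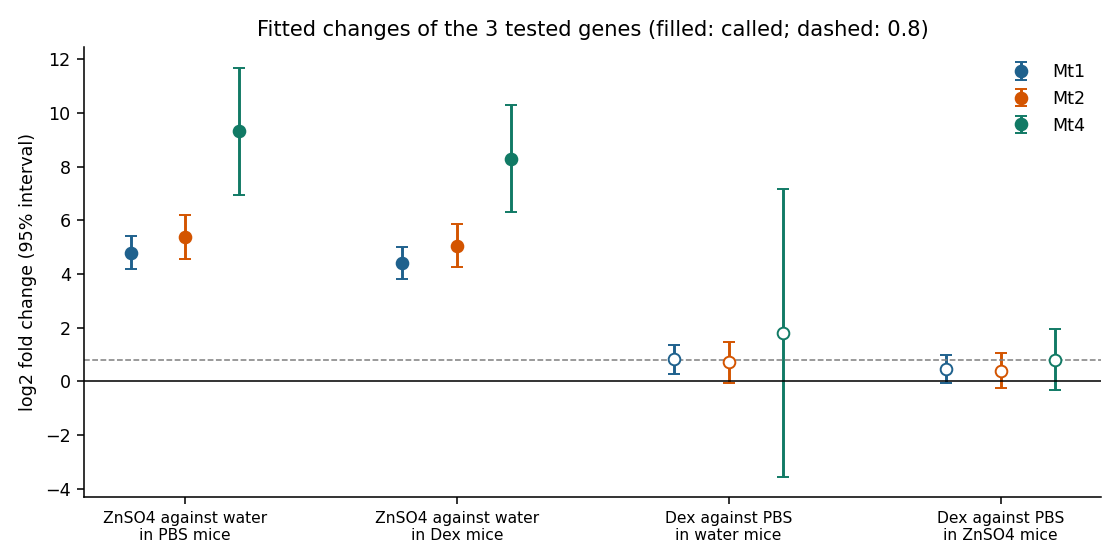
LFC of Mt1, Mt2 and Mt4 in the comparisons of 1 treatment at a time, with 95% intervals from the edgeR fit; filled points were called, open points were not (Mt4 passed the filter only through the ZnSO4 mice), and the dashed line marks an LFC of 0.8. ZnSO4 moved Mt1 and Mt2 by LFCs between 4.42 and 5.38, and none of the 6 intervals for Dex lies wholly above 0.8.

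The rise took Mt1 from a read count already above the middle to one of the highest. By read count, with no regard to length, Mt1 ranked between 2870 and 4663 among all genes in water + PBS mice and between 36 and 75 in ZnSO4 + PBS mice. Its share of all counted reads was 0.00438% to 0.00741% in water + PBS mice and 0.113% to 0.207% in ZnSO4 + PBS mice. Mt2 ranked between 8647 and 11495 in the former and between 227 and 616 in the latter.

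Zinc had much the same reach in mice that had received Dex. Mt1 was at normalised counts of 1093, 1143 and 1376 in water + Dex mice and at 25810, 27940 and 23480 in ZnSO4 + Dex mice. Mt2 was at 160.5, 150.1 and 199.9 in water + Dex mice and at 5584, 6598 and 4875 in ZnSO4 + Dex mice. No mouse of either group overlapped with the other for these genes.

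The LFC of ZnSO4 against water in Dex mice was 4.42 for Mt1 (SE 0.276, adjusted p = 1.3e-05, edgeR) and 5.06 for Mt2 (SE 0.362, adjusted p = 4.7e-05, edgeR). Mt4 had 2, 2 and 0 reads in water + Dex mice and 439, 790 and 262 in ZnSO4 + Dex mice, 1491 against 4 in all. That was 348-fold higher per normalised read (exact 95% interval 136 to 1280, counting error only), with an adjusted p of 1e-06 in the edgeR fit of all genes with at least 1 read. In this comparison 0.696% of all genes tested were called higher and 1.2% lower, Mt1 and Mt2 among the higher. Without the second ZnSO4 + Dex mouse the LFCs were 4.355 and 4.94, and both calls held. Setting ZnSO4 + Dex against water + PBS gave LFCs of 5.24 for Mt1 and 5.77 for Mt2, both called, beside 5.1% of genes higher and 4.56% lower.

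Mt3, the brain metallothionein, was at few reads in every group. It had 3, 4 and 7 reads in water + PBS mice, 4, 0 and 0 in water + Dex mice, 11, 3 and 9 in ZnSO4 + PBS mice and 7, 7 and 15 in ZnSO4 + Dex mice. The sums of ZnSO4 + PBS and water + PBS mice, 23 and 14 reads, gave a ratio per normalised read of 1.56 (exact 95% interval 0.771 to 3.29, counting error only). Those of ZnSO4 + Dex and water + Dex mice, 29 and 4 reads, gave 6.77 (2.38 to 26.5). In the edgeR fit of all genes with at least 1 read, Mt3 was not called in either (adjusted p = 0.73 in PBS mice; adjusted p = 0.12, unadjusted p = 0.0046, in Dex mice). The upper bound of 3.29 in PBS mice lies under the ratio of 27.7 for Mt1, whereas the bound of 26.5 in Dex mice does not lie under its ratio of 21.4.

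Dex moved Mt1 and Mt2 much less than zinc did, and no tested member passed the threshold with it. In mice on water, the 3 Dex mice were above all 3 PBS mice for Mt1 (1093 to 1376 against 490.3 to 850.2 normalised counts). The LFC was 0.82 (95% interval 0.28 to 1.36, adjusted p = 0.058, edgeR), a 1.77-fold difference in means of 1204 ± 151 and 680.3 ± 181 (SD, n = 3). This was not a call with edgeR, whereas with DESeq2 the LFC was 0.83 with an adjusted p of 0.005, a call. Of all genes tested, 2.79% were called higher and 1.64% lower with Dex in water mice.

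Markers of hepatocytes lay higher on average with Dex beside Mt1, in water mice through the third Dex mouse. In water mice the 4 markers had a median LFC of 1.67, and 0 of them were called by edgeR or DESeq2. Beside 22.7% of all genes tested, 1 of the 4 had an unadjusted edgeR p under 0.05. Their sum was 102 to 598 normalised counts with PBS and 63.5 to 4280 with Dex. The third water + Dex mouse held the highest sum and, at 1376, the highest Mt1 of its group, and without it the LFC of Mt1 was 0.71 (adjusted p = 0.2, edgeR). Alb was at 16.72 and 51.84 in the first and second water + Dex mice and at 524.3, 41.14 and 368.7 in water + PBS mice. Mt1 in the first and second water + Dex mice was at 1093 and 1143, above the highest water + PBS mouse at 850.2. In ZnSO4 mice the median LFC of the 4 was 2.64, and 0 were called by edgeR and 1 by DESeq2. Beside 26.3% of all genes tested, 3 of the 4 had an unadjusted edgeR p under 0.05. Their sum there was 92.6 to 161 with PBS and 265 to 2590 with Dex, and their part in the Mt1 result was not tested.

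For Mt2 in water mice the groups overlapped, with 159.5 normalised counts in the highest PBS mouse and 150.1 in the lowest Dex mouse. The LFC was 0.71 (95% interval -0.06 to 1.48, adjusted p = 0.26, edgeR), so that neither no change nor a rise of over 0.8 lies outside the interval. Mt4 had 4 reads with Dex and 1 without, a ratio of 4.48 with an exact interval of 0.443 to 221. Mt3 had 4 reads with Dex and 14 without, a ratio of 0.32 (exact 95% interval 0.0767 to 1.02, counting error only). In the edgeR fit of all genes with at least 1 read its LFC was -1.56 (unadjusted p = 0.11, adjusted p = 0.55). At so few reads, the size of a Dex change in Mt3 or Mt4 was not settled.

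In ZnSO4 mice no member passed the threshold with Dex either. Mt3, at 29 reads with Dex and 23 with PBS, gave a ratio of 1.39 (exact 95% interval 0.774 to 2.51, counting error only). Mt1 was higher in all 3 Dex mice (23480 to 27940) than in all 3 PBS mice (11970 to 22540), with an LFC of 0.45 (95% interval -0.07 to 0.98, adjusted p = 0.27, edgeR). Mt2 overlapped between the groups (LFC 0.40, 95% interval -0.26 to 1.05, adjusted p = 0.45, edgeR), and so did Mt4 (LFC 0.80, 95% interval -0.33 to 1.93, adjusted p = 0.37, edgeR). These values leaned on single mice: without the second ZnSO4 + PBS mouse the LFCs were 0.21 for Mt1, 0.14 for Mt2 and 0.35 for Mt4. Without the second ZnSO4 + Dex mouse they were 0.39, 0.27 and 0.36, and without the third ZnSO4 + PBS mouse that of Mt4 was 1.38. In this comparison 3.41% of genes were called higher and 2.4% lower.

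The interaction, which asks whether zinc acts differently with and without Dex, was not detectable for any member. Its LFC was -0.37 for Mt1 (95% interval -1.12 to 0.38, adjusted p = 0.96), -0.32 for Mt2 (-1.32 to 0.69, adjusted p = 0.98) and -1.01 for Mt4 (-6.02 to 3.99, adjusted p = 0.99), all from edgeR. For Mt3, at few reads, it was 2.02 in the edgeR fit of all genes with at least 1 read (unadjusted p = 0.085, not called). Of all genes tested, 0% were called for the interaction with edgeR at adjusted p, and 794, or 4.98%, had an unadjusted p under 0.05. DESeq2 called 6, with no member among them. The intervals of Mt1 and Mt2 leave room for a moderate interaction in either direction, and that of Mt4 for a large one.

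Mt2 rose more than Mt1 with zinc, as the ratio of their reads within each mouse showed. For every 100 Mt1 reads there were 18.8, 13.9 and 11.2 Mt2 reads in water + PBS mice and 14.7, 13.1 and 14.5 in water + Dex mice. In ZnSO4 + PBS mice there were 22.5, 22.3 and 23.8, and in ZnSO4 + Dex mice 21.6, 23.6 and 20.8. The lowest ZnSO4 mouse (20.8) was above the highest water mouse (18.8), and the spread was 2.52 (SD, n = 6) in water mice against 1.15 in ZnSO4 mice.

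The mean log2 ratio of Mt2 to Mt1 was 0.66 higher in ZnSO4 than in water mice (two-sided exact permutation test within PBS and Dex mice, p = 0.005, the smallest that the 400 arrangements can give, adjusted p = 0.01 over 2 tests). With Dex against PBS the difference was -0.04 (exact permutation p = 0.75, adjusted p = 0.75). The Mt2 reads behind the ratio come from a part of the gene. Among 230 genes wholly covered by exons of the opposite strand only 2, or 0.87%, had any read, against 59.4% of 33265 genes with no such overlap. Reads over exons of both strands had thus mostly not been counted for either gene, although the library protocol was stranded, and 156 exonic bases of Mt2 lie outside Gm45774 (chr8:94173413-94173568). The same bases were counted in all mice, so the length drops out of the difference between groups.

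**Figure D3:**
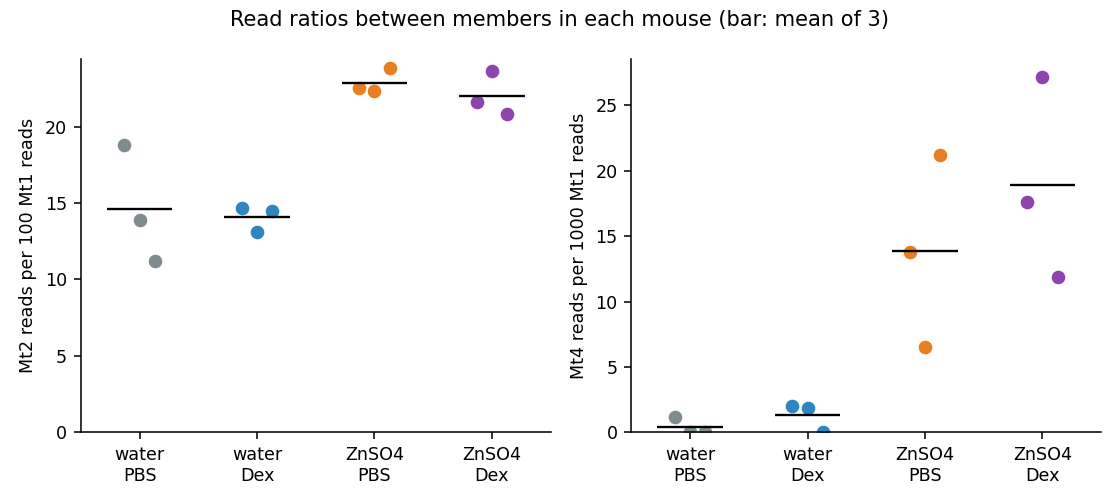
Reads of Mt2 per 100 Mt1 reads (left) and of Mt4 per 1000 Mt1 reads (right) in each mouse, by group, with the mean of 3 as a bar. Both ratios are higher in all 6 ZnSO4 mice than in all 6 water mice.

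The reads of Mt4 were also set against those of Mt1 within each mouse, to compare the groups and not the levels of the genes, whose exons cover 398 and 1246 bases. There were 13.8, 6.50 and 21.2 Mt4 reads per 1000 Mt1 reads in ZnSO4 + PBS mice and 17.6, 27.2 and 11.9 in ZnSO4 + Dex mice. Over the 6 water mice, 5 Mt4 reads stood beside 5399 of Mt1, or 0.926 per 1000 (exact 95% interval 0.301 to 2.16), and over the 6 ZnSO4 mice 2413 stood beside 136703, or 17.7 per 1000 (16.9 to 18.4), both intervals covering counting error only. No stretch of 31 bases of the Mt4 transcript occurs in a transcript of another gene, and none of Mt1 does, while 3 of the 573 stretches of Mt2, or 0.524%, occur in Pip5k1a. Since Mt4 is known from squamous epithelia, 7 keratins of such epithelia were counted after the values of Mt4 had been seen: the sum of the 7 lay between 32.7 and 53.2 normalised counts in all 12 mice, and its ranges overlapped between the groups. Most of these reads were of Krt10, with 142 in water + PBS and 113 in ZnSO4 + PBS mice. Krt5 and Krt14, which define the basal layer, had 0 and 8 reads in water + PBS and 2 and 3 in ZnSO4 + PBS mice. Krt4, a keratin of the oesophagus, had 1 and 4 reads in water + PBS and water + Dex mice and 19 in each ZnSO4 group, and its part in the result for Mt4 was not tested.

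The levels of the 4 genes were compared per length. Per kb of the union of exons, ZnSO4 + PBS mice had 15100 ± 4770 normalised counts of Mt1, 7350 ± 2460 of Mt2, 719 ± 503 of Mt4 and 6.71 ± 3.70 of Mt3 (SD, n = 3). In water + PBS mice the levels per kb were 546 ± 145 for Mt1, 177 ± 89.3 for Mt2, 4.25 ± 1.80 for Mt3 and 0.815 ± 1.41 for Mt4. Mt4 thus stood last in water + PBS mice, and above Mt3 but below Mt1 and Mt2 in ZnSO4 + PBS mice. In water + Dex mice Mt4 was at 3.68 ± 3.19 and Mt3 at 1.39 ± 2.42 per kb, so the order of these 2, both at few reads, was not settled without zinc. The order of Mt1 and Mt2 rests on the length used: over the 156 bases of Mt2 outside Gm45774, Mt2 was at 27700 ± 9270 per kb in ZnSO4 + PBS mice, above Mt1, and over the principal transcript of each gene Mt1 was at 34300 ± 10800 and Mt2 at 8460 ± 2830.

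Mt1 and Mt2 varied together among mice on the same water. Over the 6 water mice Pearson's r of their log2 normalised counts was 0.946 (exact permutation p = 0.0069, adjusted p = 0.0069 over 2 relations) and Spearman's rho 0.829 (exact permutation p = 0.058, adjusted p = 0.058). Over the 6 ZnSO4 mice r was 0.986 (exact permutation p = 0.0069, adjusted p = 0.0069) and rho 0.829 (exact permutation p = 0.058, adjusted p = 0.058). Without the 2 mice farthest from the median of Mt1, r was 0.776 and 0.642 over the 4 mice left in each, so the closeness rested in part on those mice. The 2 genes share their libraries, and each set of 6 holds PBS and Dex mice.

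The reads counted for the transcript next to Mt2 rose with zinc as well. Gm45774, the antisense transcript across Mt2, had 1, 2 and 1 reads in water + PBS mice and 40, 33 and 44 in ZnSO4 + PBS mice (LFC 4.67, SE 0.404, adjusted p = 2e-04, edgeR). In Dex mice it had 5, 5 and 3 reads on water and 79, 66 and 40 on ZnSO4 (LFC 3.69, adjusted p = 0.00015, edgeR). All ZnSO4 mice were above all water mice. Gm45774 was in this fit only because of its reads in the ZnSO4 mice, so its calls carry no weight. Without strand, reads of the introns or flanks of Mt2 and reads of Gm45774 cannot be told apart.

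Around the cluster, no other tested gene passed the threshold with zinc. Within 250 kb of either end lay 18 further genes, of which 11 were tested and 1, Gm45774, was called with ZnSO4 in PBS mice and again in Dex mice, higher in both, beside 0.747% and 0.696% of all genes tested. Gm45774 too passed the filter through the ZnSO4 mice. Gm39228, a long non-coding RNA at 2.96 kb from the end of Mt1, had too few reads to be tested. It had 0 reads in all water mice, 4, 1 and 2 in ZnSO4 + PBS mice and 3, 1 and 3 in ZnSO4 + Dex mice. The nearest tested genes on each side are Bbs2, a gene of the cilium at 38.3 kb, and Nup93, of the nuclear pore at 34.2 kb. Bbs2 had an LFC of 0.41 with ZnSO4 in PBS mice (adjusted p = 0.24, edgeR) and Nup93 of -0.27 (adjusted p = 0.26, edgeR).

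Dex, by contrast, was followed by rises farther along the chromosome. In water mice 3 of the 11 tested neighbours were called higher and 0 lower, and the same 3 were called in ZnSO4 mice, beside 2.79% and 3.41% of all genes tested. Herpud1, a gene of the endoplasmic reticulum stress response at 206 kb from the end of Mt1, went from 1495, 1581 and 1658 normalised counts in water + PBS mice to 6507, 7158 and 6988 with Dex (edgeR LFC 2.13, SE 0.102, adjusted p = 5.2e-07). Slc12a3, which encodes a sodium chloride cotransporter, at 149 kb, had an LFC of 3.13 (adjusted p = 0.0014, edgeR) from levels of at most 3.891 in water + PBS mice. It had 4, 0 and 4 reads there and 21, 25 and 19 in water + Dex mice. Slc12a3 passed the filter only through the Dex mice, so its calls carry no weight. The long non-coding RNA Gm15889, at 198 kb, had an LFC of 3.12 (adjusted p = 1.6e-05, edgeR).

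**Figure D4:**
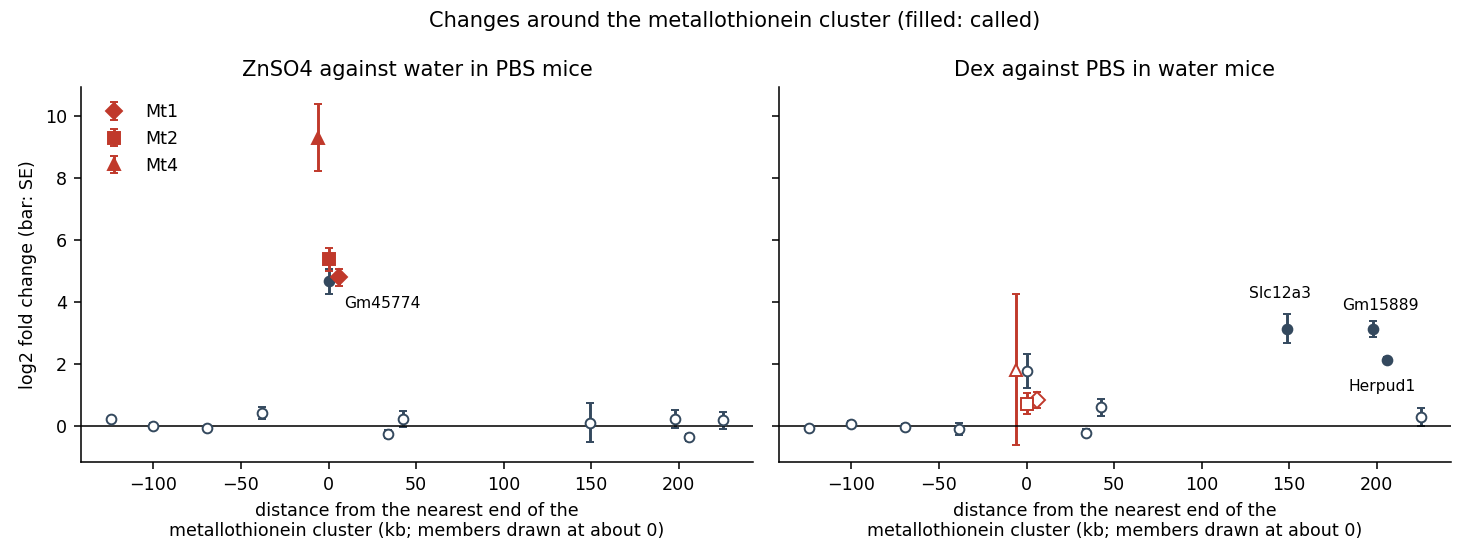
LFC with SE of the tested genes within 250 kb of the metallothionein cluster against their distance from it, for ZnSO4 in PBS mice (left) and Dex in water mice (right); members are drawn in red near 0 and filled points were called. With ZnSO4 the called genes lie inside the cluster, and with Dex they are Slc12a3, Gm15889 and Herpud1, at 149 to 206 kb. Mt4 and Gm45774 passed the filter only through the ZnSO4 mice, and Slc12a3 only through the Dex mice.

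Other genes tied to MTF1 answered zinc in part. Of 10 genes (Mtf1 itself and targets ascribed to it), all tested, 2 were called higher and 0 lower with ZnSO4 in PBS mice, beside 0.747% and 0.954% of all genes tested, and their median LFC was 0.15 beside -0.01 over all genes. Slc30a2, the zinc exporter ZnT2, was at 787.0, 541.8 and 532.1 normalised counts in water + PBS mice and at 2235, 1543 and 1964 in ZnSO4 + PBS mice (LFC 1.63, SE 0.183, adjusted p = 9e-04, edgeR). Ndrg1, a stress-responsive gene, had an LFC of 1.02 (adjusted p = 0.003, edgeR). Both were again the 2 called in Dex mice, with LFCs of 1.58 and 1.12, beside 0.696% of all genes tested called higher.

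Slc30a1, the zinc exporter ZnT1 of the cell surface, was at 2091 in ZnSO4 + PBS and 2228 in water + PBS mice (LFC -0.09, SE 0.187, adjusted p = 0.83, edgeR). Mtf1 had an LFC of -0.13 (adjusted p = 0.56, edgeR). Slc39a10, a zinc importer, had an LFC of -0.79 (adjusted p = 0.023, edgeR), just short of the size required. Selenow, a selenoprotein gene, had an LFC of 0.69 (adjusted p = 0.011, edgeR) and was likewise too small for a call.

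With Dex in water mice 1 of the 10 was called higher, beside 2.79% of all genes tested. This was Gclc, the catalytic subunit of the enzyme that starts glutathione synthesis, from 611.9, 666.2 and 675.6 to 1303, 1071 and 1445 normalised counts (LFC 0.97, SE 0.143, adjusted p = 0.0012, edgeR). In ZnSO4 mice 2 were called higher with Dex, beside 3.41% of all genes tested: Gclc (LFC 1.18) and Slc30a10, a manganese exporter (LFC 1.40, adjusted p = 0.029, edgeR). Slc30a10 overlapped between these groups, at 1454, 370.8 and 735.8 normalised counts with Dex and 398.8, 339.5 and 233.4 with PBS. Of 9 genes of metal and thiol stress, 1 was called higher with ZnSO4 in PBS mice, beside 0.747% of all genes tested. This was Gclm, the partner of Gclc in the same enzyme (LFC 0.82, SE 0.157, adjusted p = 0.015, edgeR). Hmox1, the heme oxygenase known to rise with toxic metals, was at 34.95 in ZnSO4 + PBS and 53.85 in water + PBS mice (LFC -0.62, adjusted p = 0.35, edgeR). Of the same 9 genes, 0 were called with ZnSO4 in Dex mice by edgeR or DESeq2. An unadjusted edgeR p under 0.05 was found for 2, beside 19.1% of all genes tested. With Dex in water mice 0 of the 9 were called by either tool. There 3 had an unadjusted edgeR p under 0.05, beside 22.7% of all genes tested.

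Of 8 genes of copper handling, 0 were called with ZnSO4 in PBS mice by edgeR or DESeq2, and 3 had an unadjusted p under 0.05. Of all genes tested, edgeR called 0.747% higher and 0.954% lower there, and 19.8% had an unadjusted p under 0.05. All 6 genes of the glucocorticoid list were called higher with Dex, with LFCs from 2.07 to 4.19 in water mice, beside 2.79% of all genes tested. With ZnSO4 in PBS mice 0 of those 6 were called by edgeR or DESeq2, and 1 had an unadjusted p under 0.05.

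**Figure D5:**
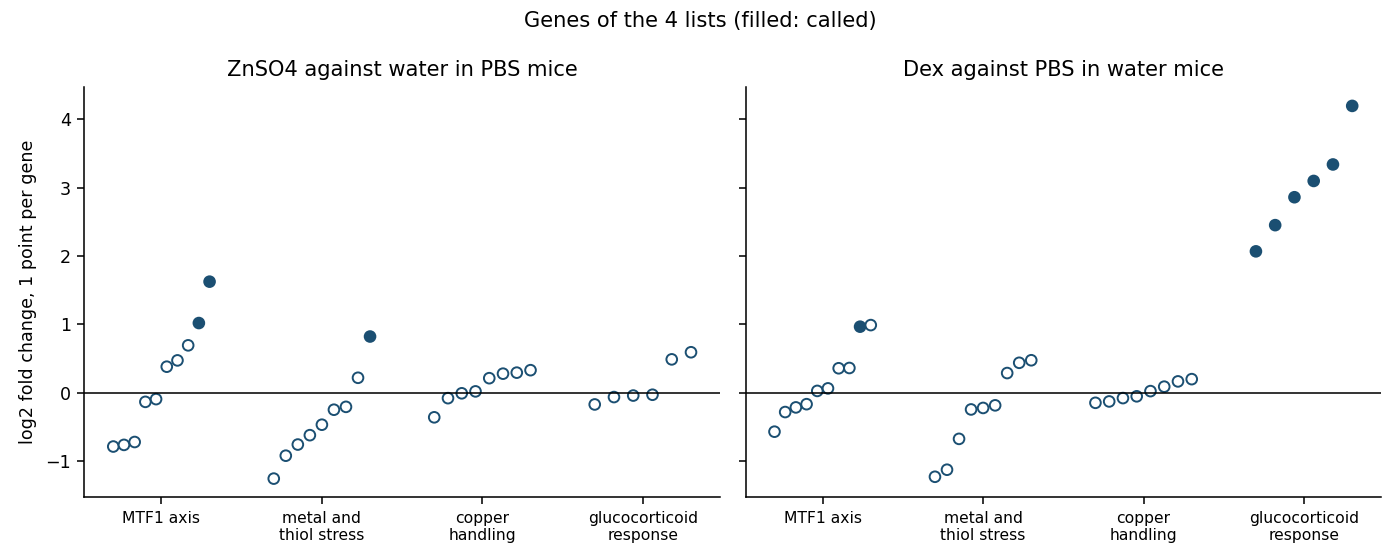
LFC of each gene of the 4 lists for ZnSO4 in PBS mice (left) and Dex in water mice (right), 1 point per gene and filled where called. With ZnSO4 the called points are Slc30a2, Ndrg1 and Gclm, and with Dex they are Gclc and all 6 glucocorticoid genes.

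Some markers of other cells in the tissue moved with zinc beside the metallothioneins. Of 4 T cell markers, 1 (Cd8a, LFC -1.14, adjusted p = 0.013, edgeR) was called lower with ZnSO4 in PBS mice and 3 were in Dex mice. Of all genes tested, 0.954% and 1.2% were called lower in these comparisons. The sum of the 4 T cell markers was 524 to 917 normalised counts in water + PBS and 261 to 500 in ZnSO4 + PBS mice. Of 5 goblet cell markers, 1 (Muc2, the main mucin, LFC 0.88, adjusted p = 0.033, edgeR) was called higher with ZnSO4 in PBS mice, beside 0.747% of all genes tested. With ZnSO4 in PBS mice 0 enterocyte, Paneth, B cell, macrophage, smooth muscle, adipocyte or hepatocyte markers were called by edgeR or DESeq2. In these lists 0 to 3 markers each had an unadjusted edgeR p under 0.05, beside 19.8% of all genes tested. Of 5 pancreatic acinar markers, 3 were at 0 in all ZnSO4 + PBS mice. With Dex in water mice 1 of 7 enterocyte markers, Slc10a2, was called higher (LFC 0.92, adjusted p = 0.024, edgeR), beside 2.79% of all genes tested. The 4 adipocyte markers had a median LFC of 1.49 there, with 0 called by edgeR or DESeq2. Of these 4, 1 had an unadjusted edgeR p under 0.05, beside 22.7% of all genes tested. The part of these markers in the metallothionein results was not tested.

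The genes whose levels were most like those of Mt1 over the 12 libraries were ranked among 15935 genes by Pearson's r of log2 CPM, as a description. Mt2 (r = 0.998) and Mt4 (0.982) came close to Mt1. The 10 other genes most like Mt1 were Raet1e (0.980), Slc30a2 (0.978), Gm45774 (0.974), Stim1 (0.974), Gstm1 (0.974), Ext2 (0.973), Ret (0.973), Rab27b (0.962), Wnk4 (0.961) and Fam210b (0.958). For Mt2 the list shared 9 of these and had Mospd1 (0.960) in place of Fam210b.

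All points share their libraries, and the pattern is mostly the step from water to ZnSO4 mice. Raet1e, which encodes a stress-induced ligand recognised by natural killer cells, was at 15.05 to 24.32 normalised counts over the 6 water mice and at 84.20 to 232.5 over the 6 ZnSO4 mice. Ret, a receptor tyrosine kinase of enteric neurons, was at 162.8 to 216.1 and 312.1 to 561.3. Stim1, a calcium sensor of the endoplasmic reticulum, was at 539.7 to 634.4 and 765.1 to 910.8, so a like pattern did not mean a like size of change. In a ranking by Spearman's rho, 1 of the 10 genes stayed among the 10 most like Mt1.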

How the data were processed

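Total RNA of 12 mouse ileum samples was made into libraries with a stranded protocol and sequenced single-end. According to the study's methods and the submitters' processing notes, the authors mapped reads to mm10 with HISAT2 2.0.4 and counted them per gene with featureCounts, without reads of several positions; Trimmomatic, SAMtools and DESeq2 are also named. The annotation and strand setting are not given in the sources used here. The deposited values were raw counts of 54838 genes, of which 54723 had a symbol in GENCODE M21 (GRCm38, the assembly of mm10). Columns of values not used numbered 0.

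Genes were filtered with edgeR's filterByExpr (minimum count 10), normalised by TMM and fitted with 1 quasi-likelihood model of 4 group means over all 12 libraries (R 4.3.3, edgeR 4.0.16, limma 3.58.1). Calls required a Benjamini-Hochberg adjusted p under 0.05 over all 15938 genes and an LFC above 0.8 in size, the interaction the adjusted p alone. SE is the LFC divided by the root of F. A normalised count is the read count scaled from a library's TMM-adjusted size to the mean of these sizes. Ratios of group sums have exact (Clopper-Pearson) 95% intervals. The count test was checked on simulated data. Alternatives were DESeq2 1.42.0, other normalisations, filters and cut-offs, a replicate block, a fit of just the compared groups, and leaving out each library.

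Named were the members, overlapping genes, neighbours within 250 kb, called genes of the lists (at most 3 per list and direction), Fkbp5, Tsc22d3 and the 10 genes most like Mt1 and Mt2. Values of further list genes were chosen after they were seen. The members and lists were chosen with earlier results of these data known. Replicate numbers did not pair the mice: deviations of same-numbered mice had a median correlation of -0.0487 (18 pairs). Within groups no libraries were alike enough to be repeats (chi-square per degree of freedom 8.23 to 45.4).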

Additional observations from a re-analysis of the deposited data

How the results depend on the processing

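The calls of Mt1, Mt2 and Mt4 with ZnSO4 kept their direction and side of the threshold in all 204 fits under other settings, over 9 results, of which those of Mt4 rest on a gene that the filter kept through the ZnSO4 mice. With Dex and for the interaction 186 of 191 did, and the 5 exceptions all concern Mt1 with Dex in water mice, which passed the threshold in these: DESeq2 (LFC 0.83, adjusted p = 0.005), all genes with at least 1 count in the edgeR fit (0.82, adjusted p = 0.027), only the groups compared in the edgeR fit (0.82, adjusted p = 0.037), without the first water + PBS mouse (1.01, adjusted p = 0.048) and without the second ZnSO4 + PBS mouse (0.82, adjusted p = 0.016). Leaving out 1 library at a time moved this LFC between 0.63 and 1.01. For Mt2 with Dex in water mice the LFC ran from 0.40 without the third to 1.16 without the first water + PBS mouse, never called. Over all alternatives the Mt1 adjusted p ran from 0.005 to 1. The cause was not tested. The mice shared replicate numbers across groups only as numbers. With a replicate block, 19 of 20 results kept their call. The exception was the ratio of Mt2 to Mt1 with ZnSO4, at the same 0.66 (exact sign-flip p = 0.031, adjusted p = 0.062), and 0.031 is the smallest p that 6 pairs allow. The Dex difference of that ratio, not called, turned to 0.01 with medians and ran between -0.126 and 0.059 when 1 library was left out. By adjusted p alone 4 rather than 2 MTF1-axis genes passed with ZnSO4, in PBS and in Dex mice. Ranked by Spearman's rho, 1 of the 10 named genes was shared for Mt1 and 1 for Mt2. Lengths by principal transcript and by bases outside other genes were added after seeing the data, and so were the alternatives for Mt4. Requiring 10 counts in every library left no value for Mt4. Depth limits Mt3 in all groups and Mt4 in water mice.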
